A study of Mus musculus with 15 samples.

Results

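The genes described here are 10 markers of liver sinusoidal endothelium (Stab1, Stab2, Lyve1, Clec4g, Pecam1, Kdr, Tek, Cdh5, Eng and Fcgr2b), out of 21755 protein-coding genes. They were chosen by name, with earlier results of these data known. Each was read for an H3K4me3 island within 1 kb of any of its transcription start sites (TSSs) in the lists of 15 mouse livers. An island is a stretch of neighbouring windows that SICER2 called enriched in 1 library, and it is the unit of the deposited lists.

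Liver sinusoidal endothelial cells line the fenestrated capillaries of the liver lobule and lack a continuous basement membrane. They clear macromolecules from blood through scavenger receptors of the stabilin family and through lectin and Fc receptors, and they carry the receptors for VEGF, angiopoietin and BMP ligands that other endothelia carry too. Trimethylation of lysine 4 of histone H3 is found at the promoters of transcribed genes. In a whole liver section endothelial nuclei are a minority beside those of hepatocytes.

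The livers came from C57BL/6 females (C57BL/6J in the study's methods) with 3 mice on each of 5 diets and 1 library per mouse. The diets were standard chow (SD), calorie restriction (CR), a high-fat diet (HF), a yellow corn-based diet (YD) and a purple corn-based diet (RD). All but CR were fed ad libitum, from an age of 3 months and for 10 months according to the series' design text, whereas each sample is labelled as 12 months old. The purple corn contains anthocyanins that the yellow corn lacks, so both corn diets share the corn and differ in these pigments. No gene was altered in any group. Chromatin was taken from sections of formalin-fixed, paraffin-embedded whole liver, so no cell type was sorted. In such bulk tissue, fewer endothelial cells and less mark per endothelial cell cannot be told apart.

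The lists held 7825 to 33752 islands and rested on 5589269 to 15449854 reads. The share of protein-coding genes with an island was highest in HF, at 51.2% ± 3.53 (SD, n = 3), followed by 43.4% ± 6.92 in CR, 39.6% ± 5.98 in SD, 31.2% ± 3.46 in RD and 22.8% ± 4.69 in YD. The library names have the form PATChIP in 5 libraries (CR 1, CR 2, HF 2, HF 3 and RD 1) and ChIP in the other 10, and what the forms stand for is not given in the sources used here. The tissue label was borne out by the hepatocyte markers, of which 6 to 10 of 10 had an island in each library. Neuronal genes, which liver should lack, had an island at 0 of 10 in 14 libraries and at 1 of 10 in HF 3.

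The sequences of the promoters show what the mark was read against. RefSeq promoters on mm10, from 250 bases before to 50 after the start, matched 7 of the 10 genes by symbol, all but Lyve1, Pecam1 and Cdh5. Printed here are those of the genes with the most islands (Eng, Clec4g), one of those with the fewest (Fcgr2b) and those whose width differed between diets in the test further on (Eng, Kdr, Stab1). Capitals mark GGAA or its reverse complement TTCC, the core bound by ETS factors such as ERG and FLI1 of endothelium.
Eng, chr2:32646345-32646644, plus strand: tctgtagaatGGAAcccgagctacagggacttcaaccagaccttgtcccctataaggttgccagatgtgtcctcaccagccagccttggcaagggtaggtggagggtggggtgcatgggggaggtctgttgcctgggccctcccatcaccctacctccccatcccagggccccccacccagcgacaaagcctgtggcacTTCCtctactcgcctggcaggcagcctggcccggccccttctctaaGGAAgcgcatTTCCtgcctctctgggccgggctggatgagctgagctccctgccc
Clec4g, chr8:3720602-3720901, minus strand: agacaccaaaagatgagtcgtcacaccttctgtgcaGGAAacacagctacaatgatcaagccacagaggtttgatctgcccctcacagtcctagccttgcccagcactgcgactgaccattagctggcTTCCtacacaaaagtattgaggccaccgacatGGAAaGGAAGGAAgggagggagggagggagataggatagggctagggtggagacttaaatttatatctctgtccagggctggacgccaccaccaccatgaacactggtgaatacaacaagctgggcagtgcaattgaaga
Kdr, chr5:75978406-75978705, minus strand: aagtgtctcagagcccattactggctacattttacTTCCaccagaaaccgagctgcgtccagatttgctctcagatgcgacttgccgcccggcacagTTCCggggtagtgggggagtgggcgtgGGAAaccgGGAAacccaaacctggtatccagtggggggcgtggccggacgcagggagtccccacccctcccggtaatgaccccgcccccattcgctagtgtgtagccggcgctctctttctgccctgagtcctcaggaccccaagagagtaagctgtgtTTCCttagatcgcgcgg
Stab1, chr14:31168592-31168891, minus strand: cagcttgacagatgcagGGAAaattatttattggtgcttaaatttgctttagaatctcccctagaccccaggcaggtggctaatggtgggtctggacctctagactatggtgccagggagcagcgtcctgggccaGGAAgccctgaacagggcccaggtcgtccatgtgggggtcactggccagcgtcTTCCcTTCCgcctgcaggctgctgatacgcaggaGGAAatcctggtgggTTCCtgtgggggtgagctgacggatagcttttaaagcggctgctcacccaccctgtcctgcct
Fcgr2b, chr1:170976022-170976321, minus strand: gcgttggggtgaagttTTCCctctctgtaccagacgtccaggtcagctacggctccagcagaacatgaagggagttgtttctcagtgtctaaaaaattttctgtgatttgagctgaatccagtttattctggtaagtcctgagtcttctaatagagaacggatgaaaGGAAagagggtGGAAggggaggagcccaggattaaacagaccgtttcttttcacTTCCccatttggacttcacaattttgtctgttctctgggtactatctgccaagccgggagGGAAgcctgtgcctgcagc

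All 7 matched promoters held GGAA on either strand, as did 95.9% of the 27025 promoters in the table. The Clec4g promoter held 5 copies, with 3 of them nearly side by side. A CpG count of 19 set the Kdr promoter apart from the other 6, which held 3 (Tek) to 7 (Stab1) CpGs, at or below the median of 7 over all promoters. GGGCGG, the core of an Sp1 box, was searched on both strands and found in Kdr and in no other matched promoter (35.9% of all promoters). TATAAA was found in Clec4g (14.2% of all). The Tek promoter held GATAA, the letters read by factors such as GATA4 (25.8% of all). Other motifs were not searched.

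The members differed widely in how often they were marked. Of the 150 pairs of member and library, 50 (33.3%) had an island, against 37.6% of the pairs over all protein-coding genes. Eng had an island in 11 of 15 lists, Clec4g in 7, Stab1 and Kdr in 6, Tek in 5, Pecam1 and Cdh5 in 4, Stab2 in 3, and Lyve1 and Fcgr2b in 2. Every member was marked somewhere and none in all 15 lists.

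By diet, the number of members with an island was 7, 1 and 4 of 10 in the SD mice 1, 2 and 3. It was 3, 3 and 5 in CR and 10, 5 and 7 in HF. In YD it was 1, 0 and 0, and in RD 1, 1 and 2. HF had the highest mean, 7.33 ± 2.52 (SD, n = 3), then came SD with 4 ± 3, CR with 3.67 ± 1.15, RD with 1.33 ± 0.577 and YD with 0.333 ± 0.577. HF and CR each lay above both corn diets with no overlap, while SD overlapped every other diet. The share of all protein-coding genes with an island showed the same gaps. By library it was 47.55% to 54.59% in HF and 35.47% to 48.23% in CR, against 17.52% to 34.73% in the corn diets. As shares the member means were 73.3% (HF), 40% (SD), 36.7% (CR), 13.3% (RD) and 3.33% (YD), beside 51.2% to 22.8% for all protein-coding genes. Many of those genes were marked in all lists or in none and cannot vary. Over the genes marked in some lists but not all, as every member was, the means were 82.7% (HF), 67.2% (CR), 59.7% (SD), 43.1% (RD) and 26.4% (YD). The member counts were given no test.

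**Figure D1:**
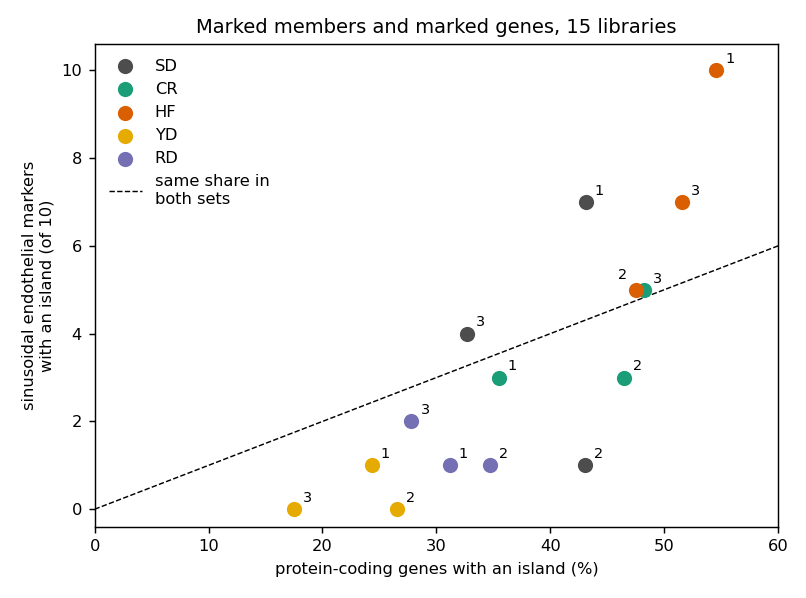
Number of the 10 sinusoidal endothelial markers with an island (vertical axis) against the percent of protein-coding genes with one (horizontal axis), 1 point per library, coloured by diet and numbered by mouse. The dashed line is where both shares are equal. HF 1 stands at 10 members and 54.6% of genes, and the 3 YD libraries lie at 0 or 1 member and 17.5% to 26.5% of genes.

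Numbers of reads and islands are set beside the member counts here, and their part in these counts was not tested. YD 1, with the most kept reads (15449854, recovered from the scores), had an island at 1 member and at 24.3% of protein-coding genes. RD 2 and CR 3 had the longest lists, 32131 and 33752 islands. They had islands at 1 and 5 members and at 34.7% and 48.2% of protein-coding genes. SD 1 and SD 2 had islands at nearly the same share of protein-coding genes, 43.1% and 43.0%, but at 7 members and 1 member. With the 7825 highest-scoring islands taken from every list, 18 of the 150 pairs remained. The 3 mice of each diet then had 4, 1 and 3 marked members (HF), 2, 0 and 3 (SD), 2, 0 and 0 (CR), 1, 1 and 0 (RD) and 1, 0 and 0 (YD). The share of all protein-coding genes at this cut is not given here, so these counts have no background beside them.

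HF 1 was the library with an island at all 10 members, and it also held islands at 6 of 10 Kupffer cell markers and 5 of 10 stellate cell markers. In the other 14 libraries Kupffer cell markers were marked at 1 of 10 in HF 3 and at 0 elsewhere, and stellate cell markers at 0 to 3 of 10. Lymphocyte markers were marked at 0 or 1 of 10 in every library, HF 1 included. Without HF 1 the HF mean was 6 members, still above the highest corn library. The part of other cell types in the HF 1 values was not tested.

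**Figure D2:**
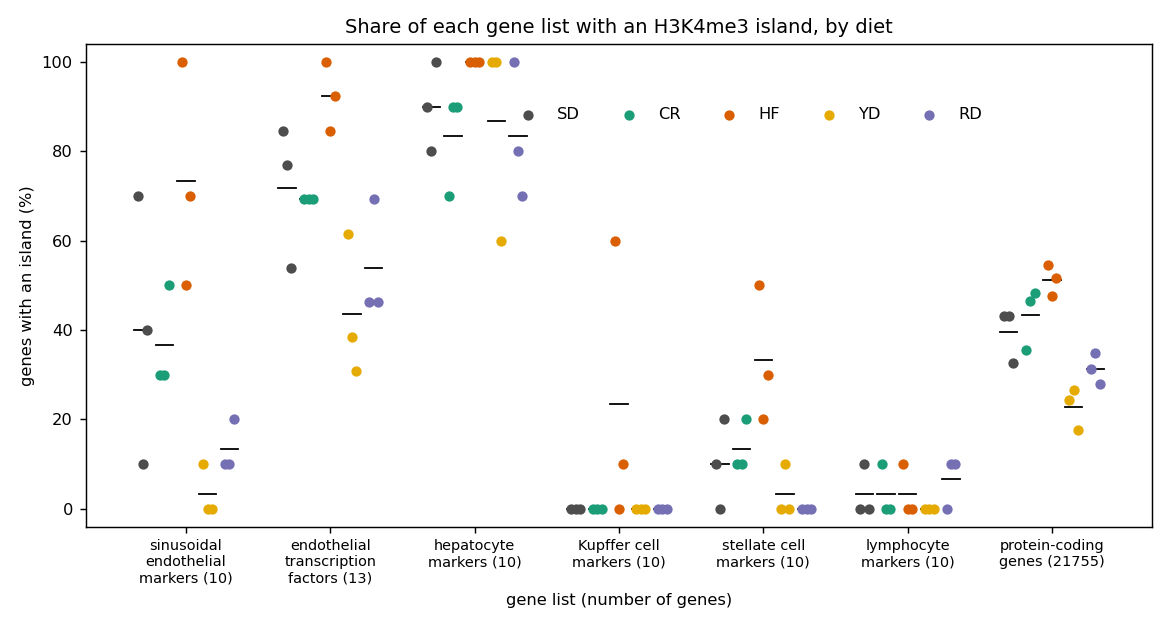
Percent of the genes of each list with an island within 1 kb of a TSS, 1 point per library, coloured by diet, with a bar at the mean of 3 mice. The sinusoidal endothelial markers run from a mean of 3.33% in YD to 73.3% in HF, and the Kupffer cell markers stand at 0 in all but 2 HF libraries.

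The scavenger and lectin receptors, which are the most specific to sinusoidal endothelium among the 10, were marked in 20 of their 75 pairs with a library. Stab1, a scavenger receptor also made by macrophages (chr14:31139013-31168641, minus strand), had islands of 1000, 0 and 2400 bp in SD, 3000, 800 and 1400 bp in CR and 2400, 0 and 0 bp in HF, and none in YD or RD. It was the one member marked in all 3 CR mice besides Eng. Stab2, which takes up hyaluronan (chr10:86841198-87008025, minus strand), had an island in 1 mouse each of SD (1400 bp), CR (2000 bp) and HF (3200 bp).

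Clec4g encodes the lectin LSECtin (chr8:3707064-3720651, minus strand). Its islands were 1400, 0 and 3000 bp in SD, 1600, 0 and 0 bp in CR, 1800, 2000 and 2800 bp in HF and 2200, 0 and 0 bp in RD, with none in YD. It was thus marked in every HF mouse and in 4 of the other 12. Lyve1, a hyaluronan receptor (chr7:110850607-110863239, minus strand), was marked in HF 1 (2400 bp) and HF 3 (2000 bp). Fcgr2b, the inhibitory Fc receptor of sinusoidal endothelium and of B cells and macrophages (chr1:170958617-170976547, minus strand), had islands in the same pair of libraries, of 5800 and 4200 bp. Lyve1 is expressed by some macrophages too, and HF 1 and HF 3 were the libraries with islands at Kupffer cell markers, 6 and 1 of 10. HF 1 and HF 3 also had the highest shares of all protein-coding genes with an island, 54.59% and 51.55%. The part of macrophages in the Lyve1 and Fcgr2b islands was not tested.

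The signalling receptors were marked in 22 of 45 pairs. Eng encodes endoglin, a co-receptor for BMP ligands (chr2:32646595-32682669, plus strand). Its islands were 2600, 800 and 1200 bp in SD, 1600, 1800 and 1200 bp in CR and 8200, 3800 and 2000 bp in HF. In YD they were 3400, 0 and 0 bp, and in RD 0, 3600 and 0 bp. Eng was marked in all 9 libraries of SD, CR and HF and in 2 of 6 corn libraries, and in the corn libraries that had an island it was wider than in any SD library. These corn libraries, YD 1 and RD 2, also had the widest islands over their whole lists. Their median island width was 2800 bp in each, against 1600 to 2200 bp in the SD libraries.

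Kdr, the main signalling receptor for VEGF (chr5:75932827-75978458, minus strand), had islands of 4000, 0 and 0 bp in SD, 0, 1600 and 2400 bp in CR and 1600, 1400 and 3200 bp in HF, and none within 1 kb of its start in YD or RD. Further downstream, islands of 1000, 1600 and 1400 bp lay in SD 2, RD 2 and RD 3, and each began 1458 bp from the start. HF 1 and HF 2 had an island of this kind as well, 1800 and 2600 bp wide, beside the one at the start. No YD library had an island at Kdr within 3 kb. Tek, the angiopoietin receptor TIE2 (chr4:94739289-94874976, plus strand), had islands of 1800, 0 and 0 bp in SD, 0, 0 and 1000 bp in CR, 3200, 2000 and 0 bp in HF and 0, 0 and 1200 bp in RD, with none in YD.

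The junction proteins were marked in 8 of 30 pairs. Pecam1, the adhesion molecule CD31 that leukocytes and platelets carry too (chr11:106654217-106750628, minus strand), had 1 island in SD (SD 3, 1600 bp), 2 in HF (2400 and 3000 bp in HF 1 and HF 3) and 1 in RD (RD 3, 1000 bp). Cdh5, which encodes VE-cadherin of endothelial adherens junctions (chr8:104101625-104144511, plus strand), had an island of 1800 bp in SD 1 and of 1600, 1000 and 2200 bp in HF, and none in CR, YD or RD. With Eng, Kdr and Clec4g it was 1 of the 4 members marked in all 3 HF mice.

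**Figure D3:**
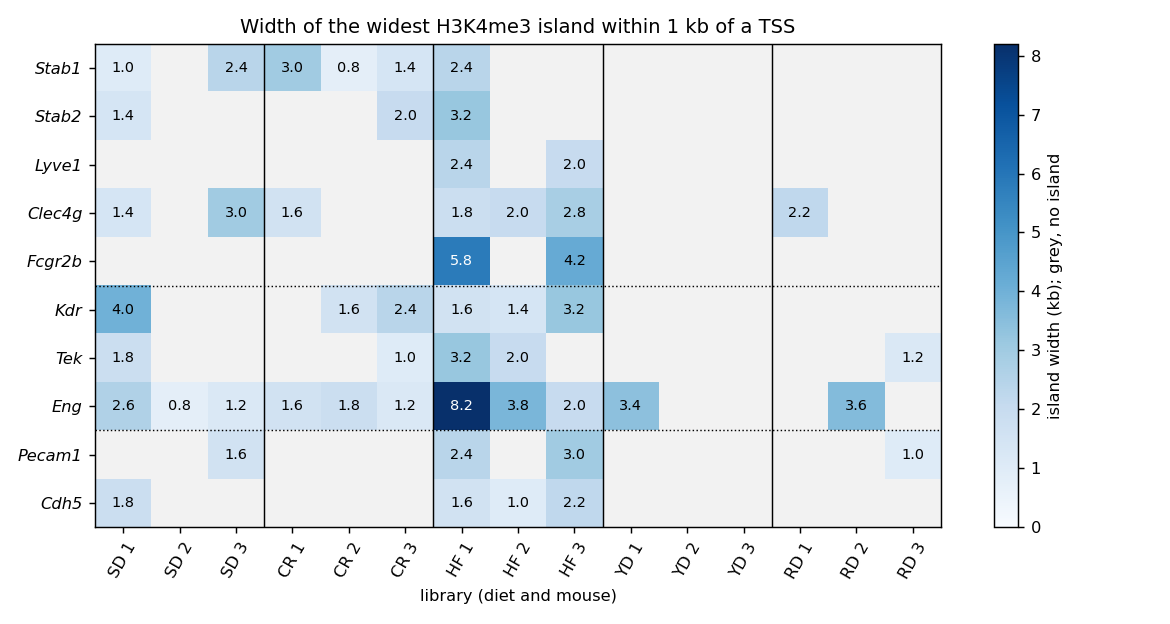
Width in kb of the widest island within 1 kb of a TSS, for each member (rows, with the scavenger and lectin receptors above, the signalling receptors between the dotted lines and the junction proteins below) and each library (columns, by diet). Grey fields have no island. The widest is the island of Eng in HF 1 (8200 bp), and the YD columns hold a single island, at Eng (3400 bp).

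Most islands lay downstream of the principal start. Of the 48 member islands within 1 kb of the principal TSS, 18 (37.5%) held that TSS and 47 (97.9%) had their midpoint downstream of it. Over all protein-coding genes, 74.5% of 118063 islands held the principal TSS and 76.9% had their midpoint downstream. When any TSS of the gene counted, the gap was smaller, with 36 of 50 member pairs (72%) against 85.2% of the pairs over all protein-coding genes. At Eng 3 of 11 islands held the principal TSS and 11 of 11 held some TSS. Island ends lie on a grid of 200 bp windows, for all genes alike, so a TSS can be missed by less than a window. The first base of the Eng islands lay 6 bp past the principal TSS in the median. Neither island of Lyve1 held the principal TSS, though both held its other one. No test was made of these shares, since islands of 1 gene in several libraries are not independent.

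The bases shared by all islands of a member fell mostly in the first intron. The 11 islands of Eng shared 600 bp over exon 1 and intron 1 (chr2:32646801-32647400). The 6 of Stab1 shared a single window of 200 bp in intron 1, and so did the 5 of Tek. The 7 of Clec4g shared 600 bp that took in exon 2 with introns 1 and 2 (chr8:3719401-3720000). At Cdh5 the 4 islands shared 1000 bp in intron 1 (chr8:104101801-104102800), while the 6 islands of Kdr shared no window. The single windows of Stab1 and Tek are shown because every island of the gene contained them, with GGAA or TTCC again in capitals. Stab1 held 3 copies and Tek 2, and each window also held 1 GATAA or its reverse complement.
Stab1, chr14:31167401-31167600, minus strand: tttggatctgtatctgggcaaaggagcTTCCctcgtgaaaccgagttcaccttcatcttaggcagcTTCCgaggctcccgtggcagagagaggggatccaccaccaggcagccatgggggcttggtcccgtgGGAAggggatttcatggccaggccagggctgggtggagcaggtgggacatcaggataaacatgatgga
Tek, chr4:94740401-94740600, plus strand: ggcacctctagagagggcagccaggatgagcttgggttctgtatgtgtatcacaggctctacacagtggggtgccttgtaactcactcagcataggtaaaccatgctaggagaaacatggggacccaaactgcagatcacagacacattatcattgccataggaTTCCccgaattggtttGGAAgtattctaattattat

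**Figure D4:**
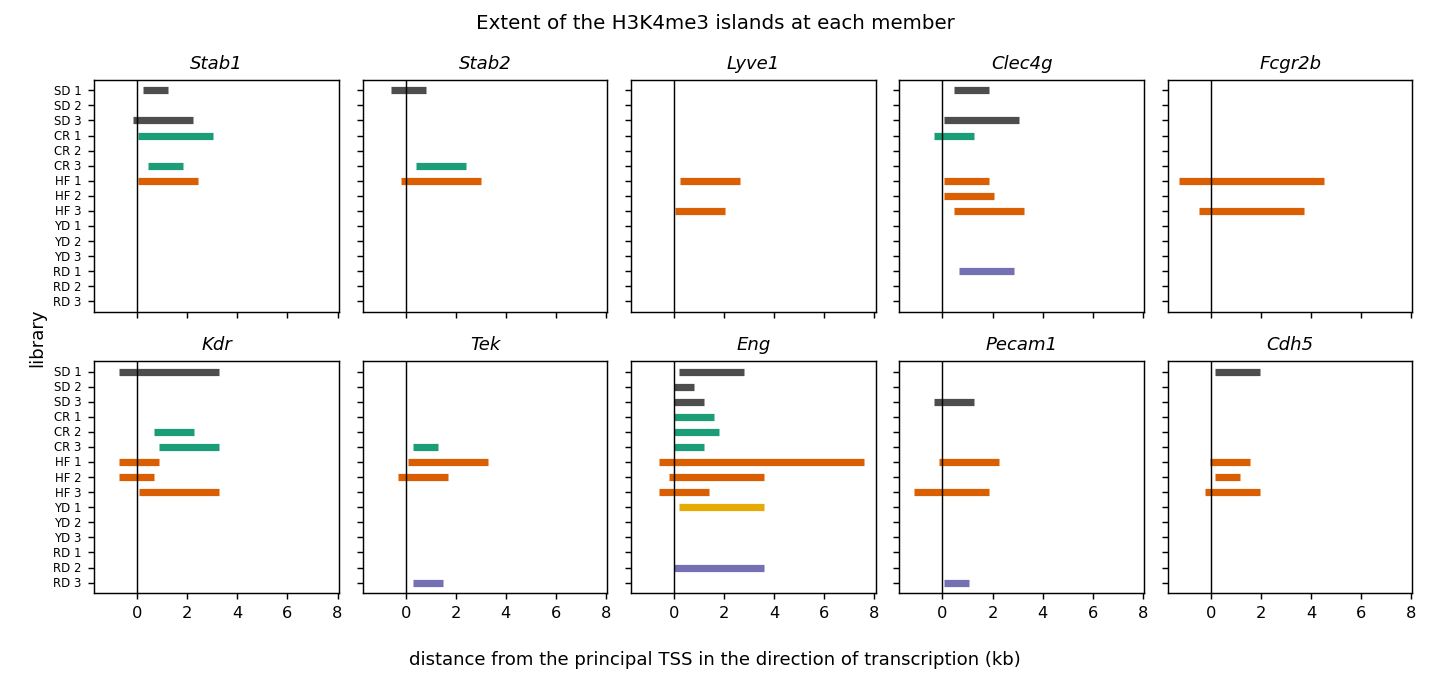
Extent of each member's islands within 1 kb of the principal TSS, in kb in the direction of transcription, with 1 bar per island, libraries from top to bottom and colours by diet. Black lines mark the TSS. Most bars lie to the right of the line, 47 of 48 by their midpoint, and the Eng island of HF 1 reaches 7605 bp downstream.

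The members' islands ranked in the middle of their own lists, with a median below that of all protein-coding genes. The score, which adds up the enrichment of an island's windows, cannot be compared between libraries, so each island was ranked by score within its list, where the 100th percentile is the highest score. The median percentile over the 50 member values was 50.5, against 72.3 over the 122861 values of all protein-coding genes, while the median width was 2000 bp in both. Eng in HF 1 ranked highest of the members, at a percentile of 90.3, and Tek in SD 1 lowest, at 2.23. Stab1 spanned 15.4 to 88.5 and Kdr 12.2 to 85.9. Pecam1 stayed under the 10th percentile in 3 of its 4 libraries, at 5.84 in SD 3, 9.38 in HF 3 and 5.55 in RD 3. In these libraries its islands were among the lowest-scoring of the list.

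**Figure D5:**
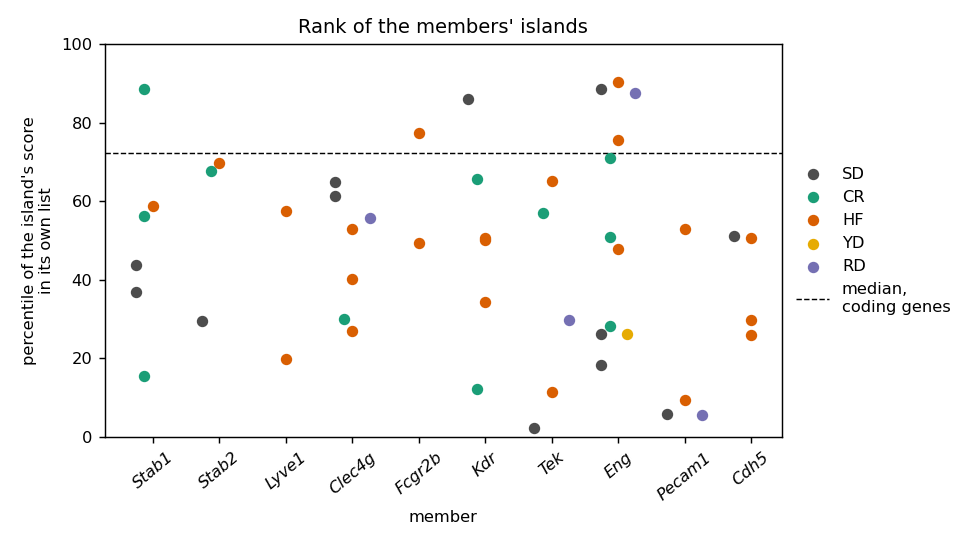
Percentile of each island's score within its own list (vertical axis) for each member, 1 point per library with an island, coloured by diet. The dashed line is the median of 72.3 over all protein-coding genes, and most member islands lie below it.

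To ask whether the width differed between diets beyond the spread between mice, limma was fitted to log2(width + 200 bp) in all 15 libraries, with a width of 0 where there was no island. The fit took the 11200 genes with an island in at least 3 lists. Of the members 8 passed, and Lyve1 and Fcgr2b, with 2 lists each, did not. Passing needs an island in some library, so the 8 are not a neutral sample of the 10. With widths of 0 in many libraries, the difference mostly reflects presence or absence of an island.

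Against SD no member passed an adjusted p of 0.05 in any diet. Over all genes tested, 7.04% passed in YD, 3.05% in HF, 0.893% in RD and 0.205% in CR. In CR the 8 adjusted p were 1, and at an unadjusted p under 0.05 there was 1 member in HF (Cdh5) and 0 in each of the other diets. In HF 7 of 8 members were wider on average, with differences from -0.86 (Stab1) to 2.01 (Cdh5) on the log2 scale and a median of 1.41, beside 0.64 over all genes tested. The Cdh5 difference had a standard error of 0.71 and an adjusted p of 0.22. It passed in 1 of 15 fits that each left out 1 library, and the adjusted p ran up to 0.647. That fit was the one without SD 1 (0.0016), the one SD library with an island there. Kdr was 1.96 ± 1.09 (SE) wider in HF, with an adjusted p of 0.50, or 0.047 without SD 1. In YD the 8 differences from SD were negative, with a median of -1.29 beside -1.08 over all genes, but all 8 turned positive (0.11 to 1.44) when each library was centred on its median log2 width, and 4 did under quantile normalization. In RD the 8 were negative too, with a median of -1.12 beside -0.53, and 2 turned positive after centring and 4 under quantile normalization.

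By presence alone, no member had an island in all 3 mice of a diet and in none of SD, a pattern that 0.313% of protein-coding genes showed for CR and 1.82% for HF. Nor did any member have an island in all 3 SD mice and in none of a corn diet, as 3.5% of genes did for YD and 1.05% for RD. Eng alone could have shown the loss, being the member marked in all 3 SD mice. Between HF and YD, the diets with the most and the fewest marked members and therefore a pair chosen after the values were seen, Clec4g, Kdr and Cdh5 were marked in all 3 HF mice and in no YD mouse, 3 of 10 members beside 13.2% of all genes. Only the 10985 genes marked in some lists but not all, as every member was, could show this, and 2882 of them did. The 13.2% is therefore too low a background for the members. A Fisher exact test of 3 against 3 cannot go below 0.1, so these patterns have no test.

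The corn diets together were then compared with SD, CR and HF, 6 libraries against 9, in the same fit. The differences of the 8 members ran from -0.78 (Pecam1) to -2.39 (Kdr), with a median of -1.56, and 4 of the 8 (Stab2, Pecam1, Tek and Cdh5) turned positive after median centring or quantile normalization. The median of all genes was itself -1.24, 97.9% of them lay lower and 39.6% were called lower. Of the 8 members 4 were called lower, a share close to this background. Of these, Kdr, Stab1 and Cdh5 had no island in a corn library and so entered the fit through the other libraries alone. They could not have come out higher in the corn diets, and their calls are given as a description. Relative to the median of all genes, the 4 lay at -1.15 (Kdr), -0.90 (Stab1), -0.84 (Eng) and -0.16 (Cdh5), and Stab2, Tek and Pecam1 lay above it.

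Kdr fell by 2.39 on the log2 scale with a standard error of 0.70 (limma, adjusted p = 0.020), with an island in 0 of 6 corn libraries against 6 of 9. Its call was lost when TSSs within 3 kb counted (adjusted p = 0.071), which brought in the downstream islands of RD 2 and RD 3, and also with the TSS inside the island (0.16), with islands at or above the median score (0.12) and with the score percentile (0.064). Stab1 fell by 2.15 with a standard error of 0.65 (limma, adjusted p = 0.022), also with 0 of 6 against 6 of 9. Its call was lost with the TSS inside the island (0.20), with TSSs of protein-coding transcripts (0.059) and with islands at or above the median score (0.15). Leaving out single libraries gave adjusted p up to 0.0437 for Kdr and 0.0465 for Stab1. Eng fell by 2.09 with a standard error of 0.78 (limma, adjusted p = 0.047), with 2 of 6 against 9 of 9, and kept its call in 2 of 15 fits that each left out 1 library. Those were the fits without YD 1 and without RD 2, the corn libraries with an island, and in the other 13 the adjusted p ran up to 0.12. The Eng call was also lost with the TSS inside the island (0.056), with equal list lengths (0.33) and with islands at or above the median score (0.21). It was lost too with the score percentile (0.0765), a pseudocount of 1000 bp (0.067) and no filter beyond 1 list (0.052). Cdh5 fell by 1.41 with a standard error of 0.46 (limma, adjusted p = 0.030), with 0 of 6 against 4 of 9, and lost the call in 5 of 15 fits that each left out 1 library (adjusted p up to 0.057), those without HF 1, HF 3, YD 3, RD 1 or RD 3. With the score percentile the Cdh5 call was lost as well (0.086).

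None of the 4 calls held when each library was centred on its median log2 width over the genes tested. The differences were then -0.74 (Kdr), -0.50 (Stab1), -0.44 (Eng) and 0.24 (Cdh5, which changed sign), with adjusted p of 0.58 to 0.85. In YD 1 and YD 3 the median was the value of a gene without an island, which limits this alternative. The two-sided exact permutation test over the 5005 arrangements of 6 and 9 libraries gave p = 0.026 for Kdr and for Stab1, 0.023 for Eng and 0.10 for Cdh5, and adjusted p of 0.063 to 0.15 over all 11200 genes. With the form of the library name as a term in limma all 4 remained called, with adjusted p of 0.017 to 0.046. All SD and YD libraries had the ChIP form, so form and diet were partly confounded. Among the 10 ChIP-form libraries the differences were -2.93 (Stab1), -2.78 (Kdr) and -1.97 (Eng), with CR and HF at 1 library each. Cdh5 had too few islands to be fitted there.

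Clec4g lay at -1.72 with a standard error of 0.74 in the corn diets and missed the threshold (limma, adjusted p = 0.073), though it passed without SD 2 (0.030) or without RD 1 (0.026), the corn library with an island. Stab2 (-1.17 ± 0.75, SE), Tek (-1.03 ± 0.78) and Pecam1 (-0.78 ± 0.70) had adjusted p of 0.19, 0.25 and 0.33. Stab2 had no island in a corn library and could not have come out higher there, so its values are a description. It passed with the form as a term (limma, adjusted p = 0.034). In the ChIP-form libraries its difference was -2.85, with CR and HF at 1 library each.

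Of the 58 genes in 3 other lists of endothelium and its signalling, not all specific to endothelial cells, 44 were tested. In the corn diets 11 of the 44 (25.0%) were called lower and 0 higher, beside 39.6% of all genes, and their median of -1.21 was near that of all genes, -1.24. By list these were 4 of 14 genes of VEGF, angiopoietin and BMP signalling, 4 of 12 transcription factors and 3 of 18 further surface and secreted genes. Those with the smallest adjusted p were Esam, an adhesion molecule of endothelial junctions (-2.66, adjusted p = 6.1e-05), the Notch ligand Dll4 (-2.42, 0.013), the transcription factor Sox7 (-2.13, 0.017) and the adhesion receptor Adgrl4 (-2.03, 0.021), all by limma. Of these, Esam and Sox7 had no island in a corn library and entered the fit through the other libraries alone. They could not have come out higher in the corn diets, and their calls are given as a description. Esam had no island in SD either, so its difference comes from CR and HF. After median centring none of the 4 was called, with adjusted p of 0.22, 0.57, 0.70 and 0.77, and under the exact permutation test the adjusted p were 0.067, 0.038, 0.066 and 0.069. With the TSS inside the island the calls of Dll4 (0.064) and Sox7 (0.155) were lost. Against SD 1 gene of these lists was called higher in CR and in HF, Esam in both, and 1 was called lower in YD, Adgrl4 (-3.36, adjusted p = 0.048). The Adgrl4 call in YD held in 4 of 15 fits without 1 library (adjusted p up to 0.14) and was lost with the TSS inside the island (0.082), with the form of the library name as a term (0.062) and after centring (0.475).

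Esam had the smallest adjusted p of the 44 in both comparisons with SD. Its islands were 1800, 4400 and 2800 bp in CR and 4400, 1800 and 3800 bp in HF, and it had none in the 9 libraries of SD, YD and RD. It entered the fit through CR and HF alone and could not have come out lower there, so the values are a description. The difference from SD was 3.92 in CR (adjusted p = 0.0015) and 4.06 in HF (adjusted p = 0.00012) by limma. Without any single library the adjusted p was at most 0.0090. After median centring the differences were 3.76 and 3.55 with adjusted p of 0.18 and 0.12, and with equal numbers of islands the adjusted p were 1 and 0.53.

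Nrp1 and Nrp2, co-receptors for VEGF, the transcription factors Gata4, Maf, Hhex and Meis1 and the protease Ctsl had an island in all 15 lists, and Gata4 and Hhex are expressed in hepatocytes too. Tie1, Gdf2, Wnt9b, Vwf and Cd34 had one in none. The transcription factors as a list had a higher share of islands than the sinusoidal markers in every diet, with means of 92.3% (HF), 71.8% (SD), 69.2% (CR), 53.8% (RD) and 43.6% (YD).

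Outside the endothelial lists, the genes whose log2 width over the 15 libraries was most like the mean of the 8 members were Zfpm2 (Pearson r = 0.90), Inka1 (0.89), Hmgcs1 (0.89), Uap1l1 (0.89) and Lsm6 (0.89). Hmgcs1, an enzyme of cholesterol synthesis, had an island in all 15 lists and varied in width, while the other 4 had one in 5 to 7. For single members, the closest genes were Ndc80 for Kdr (r = 0.992, 6 lists), Serpinh1 for Tek (0.988, 5 lists), Zfp251 for Cdh5 (0.997, 4 lists), Tctex1d2 for Stab2 (0.999, 3 lists), Bche for Stab1 (0.92, 7 lists), Ikzf1 for Pecam1 (0.91, 3 lists) and Por for Clec4g (0.82, 15 lists). Eng was closest to Clec14a (0.95, 11 lists), another gene of endothelial cells. With few lists, a high r says that islands fell in the same libraries. These r come from a search over 11200 genes in libraries that share depth and length of list, and they are given as a description.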

How the data were processed

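H3K4me3 was profiled by ChIP-seq on formalin-fixed, paraffin-embedded liver (PAT-ChIP) in 15 mice. Per the authors' methods, bwa placed the single-end 50 bp reads on mm10. The authors kept non-duplicate reads with a MAPQ of at least 1 on chromosomes 1 to 19 and X with samtools and called islands per library with SICER2 (fragment 200 bp, window 200 bp, gap 400 bp, FDR under 0.05), without pooling. The deposited lists give the position and the score of each island, the score being unscaled between libraries. An input control was not analysed here, nor were reads per island, so errors are those between mice and no counting error is given. Reads per library were recovered from the score steps of single-window islands, with an effective genome fraction of 0.74.

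TSSs were those of GENCODE M21. Widths (log2, pseudocount 200 bp) were compared with limma 3.58.1 in R 4.3.3, two-sided, with Benjamini-Hochberg adjustment over 11200 genes and a threshold of 0.05, and all else was computed in Python 3.11.15. The calculations were tested on simulated normal log2 widths, which lack the many widths of 0 of these data. The members, lists and tests were chosen with earlier results of these data known. Named genes were all members, up to 4 called genes of the other endothelial lists per comparison, those in all lists or none, and the closest patterns. Alternatives covered the TSS distance and set, the islands kept, the measure, pseudocount, filter, normalization, covariates, exact permutation and each mouse left out.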

Additional observations from a re-analysis of the deposited data

How the results depend on the processing

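The mean number of members with an island was highest in HF and lowest in YD under each of the 6 choices of TSS distance, TSS set and islands kept. It moved by more than the spread between mice with the TSS inside the island (1.67 in CR), with TSSs within 3 kb (2 in RD), with equal list lengths (0.667 in CR, 2.67 in HF and 0.667 in RD) and with islands at or above the median score (2.33 in CR, 4 in HF and 0.667 in RD). The ChIP-form libraries, an alternative added after the data were seen, gave 5 in CR and 10 in HF, from 1 library each. Leaving out each mouse gave 6 to 8.5 in HF, 2.5 to 5.5 in SD, 3 to 4 in CR, 1 to 1.5 in RD and 0 to 0.5 in YD.

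The number of genes called by limma, 23 (CR), 342 (HF), 788 (YD) and 100 (RD) against SD and 4433 in the corn diets together, changed with the scaling between libraries. Median centring left 0 calls in all 5 comparisons, and quantile normalization 0, 1, 0, 0 and 25 in the same order. Both turned the Cdh5 difference in the corn diets, to 0.24 and 0.204. Of the 8 members, centring also turned the uncalled differences from SD of 8 in YD, 2 in RD, 1 in CR and 1 in HF. Equal list lengths gave 13, 67, 32, 56 and 1470 calls, and the ChIP-form libraries 0, 0, 514, 197 and 1381. Islands at or above the median score gave 497 in YD, 135 in HF, 29 in RD and 9 in CR. The score percentile in place of the width gave 8 in CR, 118 in HF and 14 in RD, a pseudocount of 1000 bp 5 in CR and 30 in RD, and the TSS inside the island 452 in YD and 47 in RD. With an island in at least 8 lists, 0 were called in CR and 1 in HF, and with the 6 libraries of the comparison alone, 42 in CR and 216 in RD. The form of the library name as a term gave 14 in CR. The cause of these shifts was not tested. Leaving out each mouse gave 13 (without HF 1) to 536 calls in HF, 22 to 117 in CR, 356 to 1249 in YD, 68 to 224 in RD and 3030 to 5368 in the corn diets. The exact permutation test called 3453 genes in the corn diets.

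No pairing by replicate number was seen in the widths, where the 30 same-numbered pairs of deviations from the diet means correlated at -0.104 to 0.09. These correlations cannot show whether mice of the same number shared a litter or a day of processing. With the replicate block, 19, 291, 677, 72 and 4270 genes were called and no member's call changed. Of 1155 values of single members under alternatives, 1103 kept their side of the threshold (uncalled values may have changed sign), 44 lost a call, 6 gained one and 2, both Cdh5, lost one with a change of sign. Depth behind single islands was not used here, so an island missed and a mark absent cannot be separated.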
